A study of Mus musculus with 6 samples.

Results

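Expression of 4 metabolic genes was examined in colon crypts of mice without the chromatin remodelling factor Smarcad1 in the gut epithelium. The genes were the transporters Slc16a1 and Slc23a2, the peroxisomal enzyme gene Phyh and the mitochondrial folate enzyme gene Mthfd2. They were selected by name from the 61 genes of the deposited colon crypt table, which its authors had limited to genes called different between the genotypes on the same libraries. The members were therefore chosen on the contrast described here, and their values are given as a description with no test. Being in the table and differing between genotypes is a result of that choice. Genes just outside the threshold of the table have no row, so values on its other side were not analysed here.

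The 6 libraries came from whole crypts shaken off the colon of C57BL/6 mice, 3 labelled wild type (WT) and 3 labelled Vil-Cre mediated KO (here KO). In the KO, a Cre recombinase under the Villin promoter, active in epithelial cells of the gut, removed floxed exons of Smarcad1, and a single targeted mouse line was kept for the study. Cells of other types in the preparation, where this promoter is not active, would keep the gene. Per the methods of the study the mice were male. The labels give neither the age nor whether the WT mice carried the floxed allele or the Cre. The deposited table gives 1 mean log2 value per gene and genotype, normalised by the authors to total reads. Values per library and sequencing depth were not used here, so no replicate error, n or interval stands beside a mean. Smarcad1 itself had an authors' mean of 2.87 in KO and 4.58 in WT, a log2 difference of -1.70, which is in the direction of the labels. Its values cover exons inside and outside the deleted part. Of 46 markers of epithelial, absorptive, secretory, stem, immune and stromal cells, 1 had a row, the granzyme gene Gzmb of cytotoxic lymphocytes, with a log2 difference of -1.55. Spdef, a transcription factor gene of secretory cells that was on none of these lists, also had a row, with a log2 difference of -0.66. The part of either gene's cells in the values below was not tested. No marker of the epithelium, such as Epcam or Vil1, had a row, so the tissue label could not be checked against its markers.

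The colon epithelium takes up short-chain fatty acids that bacteria make from fibre, and colonocytes use butyrate as a main fuel. Slc16a1 encodes MCT1, which carries lactate, pyruvate, butyrate and ketone bodies across the membrane together with a proton. Slc23a2 encodes SVCT2, which brings ascorbate (vitamin C) into cells with sodium, although the file describes its family as nucleobase transporters. Phyh encodes phytanoyl-CoA hydroxylase, which starts the alpha-oxidation of branched fatty acids such as phytanic acid in the peroxisome. Mthfd2 encodes a dehydrogenase and cyclohydrolase of the mitochondrial folate pathway, which passes one-carbon units from serine towards purine synthesis and is known for its high expression in dividing cells.

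The stretches before the transcription start are shown so that the promoters of the 4 members can be set beside each other. All 4 members matched a RefSeq promoter window on GRCm38.p6 by symbol. Each line gives the 250 bases before the RefSeq start, read 5′ to 3′ on the strand of the gene. Capitals mark matches, on either strand, to the 6 motifs searched. The stretches are chr3:104638414-104638663 on the plus strand for Slc16a1, chr2:132145109-132145358 on the minus strand for Slc23a2, chr2:4918746-4918995 on the plus strand for Phyh and chr6:83317605-83317854 on the minus strand for Mthfd2.
Slc16a1: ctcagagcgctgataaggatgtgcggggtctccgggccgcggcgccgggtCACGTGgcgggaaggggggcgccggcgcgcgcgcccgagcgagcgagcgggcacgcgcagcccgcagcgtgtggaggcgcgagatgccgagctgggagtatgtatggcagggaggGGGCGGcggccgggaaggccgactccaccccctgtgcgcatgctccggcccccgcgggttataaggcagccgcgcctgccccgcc
Slc23a2: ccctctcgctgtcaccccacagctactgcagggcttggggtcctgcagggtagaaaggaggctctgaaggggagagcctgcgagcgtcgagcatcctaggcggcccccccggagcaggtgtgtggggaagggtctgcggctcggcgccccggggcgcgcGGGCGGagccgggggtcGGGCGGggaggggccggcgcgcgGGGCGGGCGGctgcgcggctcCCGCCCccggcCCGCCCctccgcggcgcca
Phyh: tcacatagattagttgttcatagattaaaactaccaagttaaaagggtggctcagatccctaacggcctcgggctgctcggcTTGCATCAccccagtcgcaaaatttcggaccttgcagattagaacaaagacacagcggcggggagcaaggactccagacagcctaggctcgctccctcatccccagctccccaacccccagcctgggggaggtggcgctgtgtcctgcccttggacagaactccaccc
Mthfd2: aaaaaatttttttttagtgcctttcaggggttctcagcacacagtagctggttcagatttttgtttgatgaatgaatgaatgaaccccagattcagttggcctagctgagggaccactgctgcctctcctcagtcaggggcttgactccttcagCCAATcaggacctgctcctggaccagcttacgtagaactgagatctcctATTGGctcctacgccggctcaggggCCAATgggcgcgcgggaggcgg

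The genes with a higher mean are described first. Slc16a1 had an authors' mean of 8.00 in KO and 7.37 in WT on the log2 scale. The log2 difference, KO minus WT, was 0.63, a KO level 1.55-fold that of WT and the largest of the members in size. The gene (ENSMUSG00000032902) occupies bases 104638668 to 104658462 of chromosome 3, plus strand, on GRCm38. GENCODE M21 gives it 1 transcript of 5 exons and 4426 bases, of which 61.9% are 3′ untranslated. In a bulk library a larger share of the cells that express a gene and more of its RNA per cell cannot be told apart, which holds for each member.

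Slc23a2, the ascorbate transporter gene, had an authors' mean of 5.99 in KO and 5.47 in WT on the log2 scale. The log2 difference was 0.51, a KO level 1.43-fold that of WT. The gene (ENSMUSG00000027340) covers 92.6 kb of chromosome 2, from 132052496 to 132145108 on the minus strand, with 7 annotated transcripts whose exons merge to 7951 bases. A pseudogene, Gm14052, and an antisense gene, Gm14051, lie within it on the opposite strand, and 0 of their bases overlap its merged exons.

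Phyh, the alpha-oxidation enzyme gene, had an authors' mean of 6.87 in KO and 6.40 in WT on the log2 scale. Its log2 difference of 0.47 was the smallest of the members, a KO level 1.38-fold that of WT. The gene (ENSMUSG00000026664) occupies bases 4919019 to 4938730 of chromosome 2, plus strand, and its coding transcript has 9 exons and 1438 bases. Phyh has no overlapping annotated gene, and the nearest coding gene, Sephs1, is 8462 bases away.

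Mthfd2 was the member with a lower mean. Its authors' mean was 4.33 in KO and 4.96 in WT on the log2 scale. The log2 difference was -0.62, which puts the KO level at 65.0% of WT. In size this was close to that of Slc16a1, with a gap of 0.0072 log2 units, and opposite in sign. The gene (ENSMUSG00000005667) occupies bases 83305691 to 83317606 of chromosome 6, minus strand, as the deposited table places it. GENCODE M21 extends the gene by 8302 bases at its 5′ side, and the transcript of the protein that the table names has 8 exons and 2085 bases. The neighbouring gene Mob1a is 108 bases from the extended gene. The targeted gene Smarcad1 lies on the same chromosome, with starts 18.3 Mb apart.

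**Figure D1:**
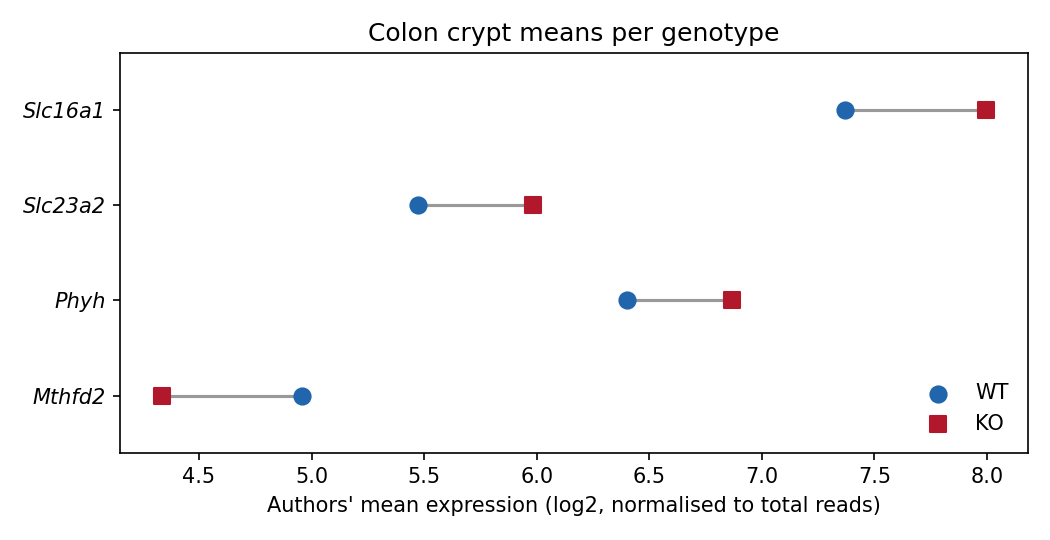
Authors' mean expression of the 4 members in WT (circles) and KO (squares) colon crypts, on a log2 scale normalised to total reads; 1 mean per genotype, so no error bars. Slc16a1, Slc23a2 and Phyh lie 0.63, 0.51 and 0.47 higher in KO and Mthfd2 lies 0.62 lower; positions along the axis are to be compared within a gene and not between genes.

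**Figure D2:**
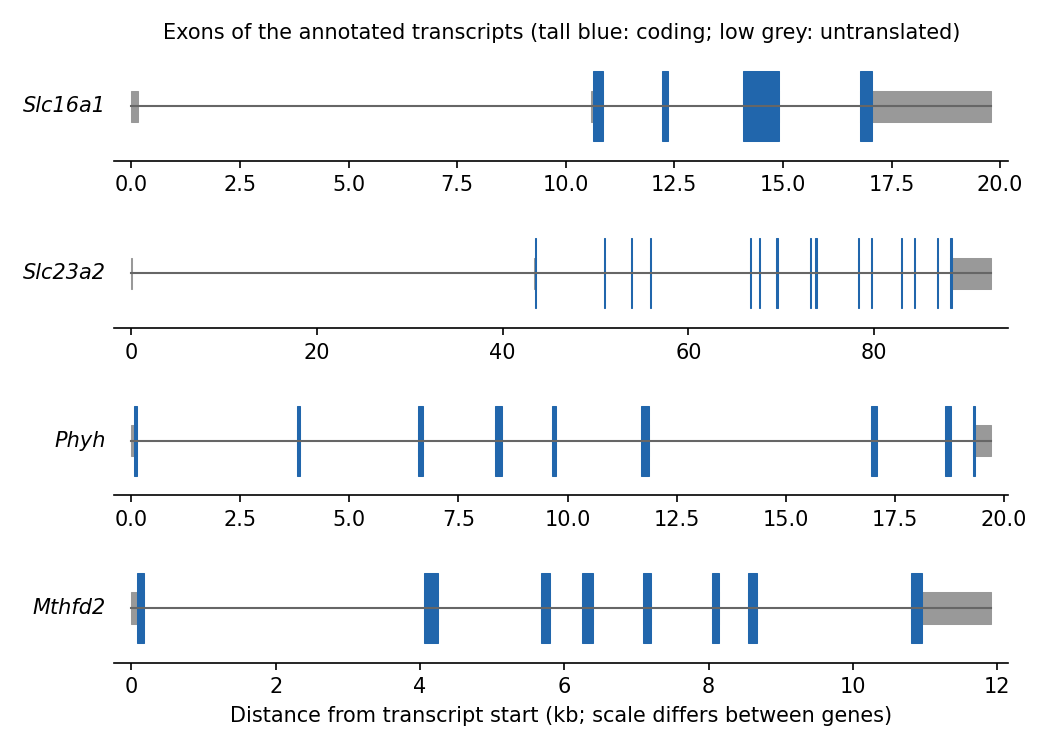
Exons of the GENCODE M21 transcript behind each protein that the table names, drawn by distance in kb from the transcript start, with a scale of its own for each gene. Tall blocks are coding and low grey blocks untranslated; the 3′ untranslated part makes up 61.9% of the Slc16a1 transcript and 25.7% of that of Phyh.

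The authors counted reads over exons merged over isoforms, in an annotation that differs from the models drawn at least for the edge of Mthfd2. Words of 50 bases were searched on both strands in the transcripts of all other genes, since reads that map to several places had been dropped. Of the words of the longest transcript, 0 of 4377 for Slc16a1, 0 of 6315 for Slc23a2, 0 of 1389 for Phyh and 0 of 2036 for Mthfd2 occurred in another annotated gene. For Slc16a1 and Mthfd2 too, the genes that lie across them in the annotation had 0 bases in their merged exons. Levels were not compared between members, because it is uncertain whether the deposited values were scaled by transcript length.

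Within the table, the KO mean was the higher for 34 of 61 genes (55.7%), among them 3 members, and the lower for 27 (44.3%), among them 1 member. Since the table was used to choose the members, nothing is read from these shares. The size of the log2 difference lay between 0.47 and 0.63 for the members, with a median of 0.57, beside a median of 0.78 over all 61 genes. A difference of over 1 log2 unit was seen for 23 genes (37.7%) and for 0 of the members. By size of the difference, Slc16a1 ranked 46, Mthfd2 47, Slc23a2 54 and Phyh 59 among the 61. The 3 higher members lay below the median of the higher genes, 0.76, and Mthfd2 was less negative than the median of the lower genes, -0.90.

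**Figure D3:**
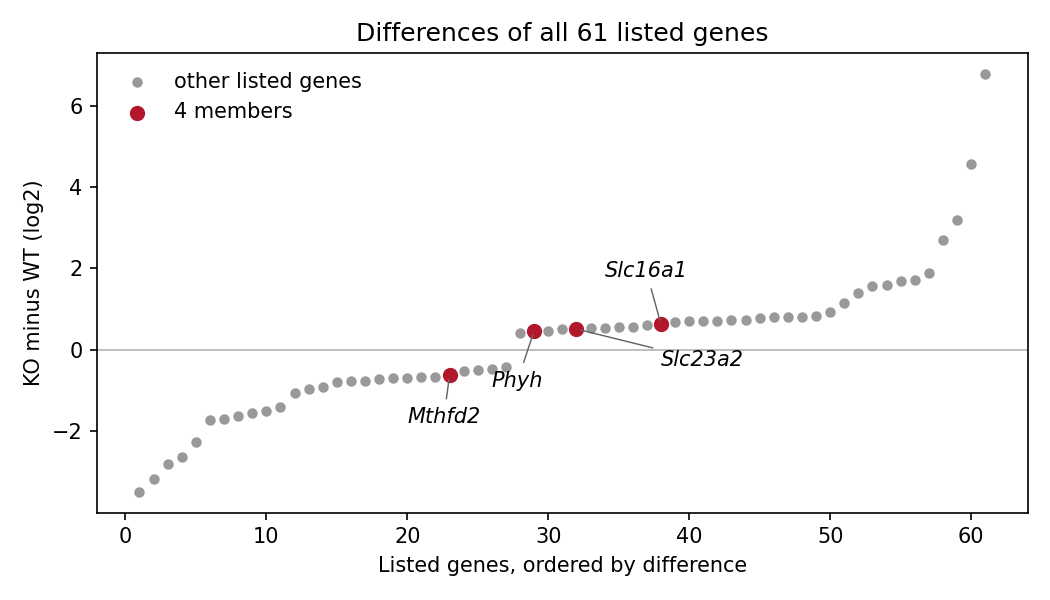
KO minus WT difference in log2 of each of the 61 listed genes, ordered from the lowest to the highest, with the 4 members in red. The members sit on the shallow stretches on either side of the step through 0, at -0.62 for Mthfd2 and between 0.47 and 0.63 for the other members. No listed gene lies between -0.42 and 0.42. The table holds only genes that its authors called different, and the reason for this step was not tested.

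For each member, the next gene of the table on either side by log2 difference was taken, over the means of 2 genotypes. Beside Slc16a1 lay Atp6v0c, a subunit gene of the vacuolar proton pump, at 0.61, and Mettl7a1, a methyltransferase-like gene, at 0.68. Beside Slc23a2 lay Mgat4c at 0.51 and Nox1, which encodes a superoxide-forming oxidase of the colon epithelium, at 0.53. Phyh had Ahnak, a large scaffold protein gene, also at 0.47, and Maoa, which encodes a monoamine oxidase of the mitochondrial surface, at 0.42. Beside Mthfd2 lay the secretory cell gene Spdef at -0.66 and the transcription factor gene Etv5 at -0.51. At least 1 gene further along on the other side was nearer in value to Mthfd2 than Etv5, and to Phyh than Maoa. With 1 difference per gene such closeness is a description of size alone.

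The other genes of the same pathways were looked up from 6 lists holding 132 genes. How many genes the authors tested to arrive at the 61 was not analysed here, so the counts below have no overall share beside them and nothing is read from them. The list for monocarboxylate and short-chain fatty acid transport had 21 genes, and Slc16a1 alone was in the table. Its chaperone gene Bsg, the sodium-coupled transporter gene Slc5a8 and the other Slc16 genes had no row. Of 14 genes for ascorbate transport and recycling, Slc23a2 alone was in the table, and Slc23a1, which encodes the other sodium-coupled ascorbate transporter, had no row. Slc16a1 and Slc23a2 were the 2 solute carrier (Slc) genes of the table. Of 27 genes of folate one-carbon metabolism, Mthfd2 alone was in the table, without Shmt2, Mthfd1l or Mthfd2l, which act in the same mitochondrial pathway. A gene without a row is not shown to be unchanged.

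The list for alpha-oxidation and peroxisomes had 40 genes, of which 3 were in the table, 2 of them higher and 1 lower by the KO mean. Beside Phyh these were Fa2h and Pex5l, which were put on the list with the genes of the table already known. Fa2h, which encodes the enzyme that makes 2-hydroxy fatty acids, had authors' means of 5.79 in KO and 5.05 in WT, a log2 difference of 0.74. Pex5l, a relative of the receptor that imports peroxisomal proteins, had authors' means of -0.22 in KO and 2.59 in WT. Its log2 difference of -2.81 was opposite in sign to those of Phyh and Fa2h. Pex5l is best known from neurons, and the Phyh protein itself enters peroxisomes through a signal read by Pex7, which had no row. Of 14 genes of serine synthesis and Atf4 targets and of 16 genes of butyrate use and ketone synthesis, 0 were in the table.

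The promoter windows, from 250 bases before to 50 after the RefSeq start, differed among the members in base composition. The share of G and C was 73.7% for Slc16a1 and 78.3% for Slc23a2, higher than in 94.9% and 98.2% of 32851 mouse windows. It was 57.0% for Phyh and 55.7% for Mthfd2, against a median of 52.7%. The windows held 42 CpG pairs for Slc16a1, 37 for Slc23a2, 12 for Phyh and 15 for Mthfd2, against a median of 7. Both transporter genes thus had windows rich in CpG, and the windows of both enzyme genes lay nearer to the median.

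All 6 motifs were searched on both strands, and distances run from the RefSeq start to the leftmost base of the match. The sequence of Slc16a1 above holds an E-box, CACGTG, which Myc among others binds, 200 bases before the start, and 7.15% of all windows hold this motif. It also holds a GC box, GGGCGG, 85 bases before the start. Slc23a2 has 6 GC boxes between 91 and 19 bases before the start, of which 2 overlap, and 35.7% of all windows hold at least 1. For Phyh a match to the CARE element bound by Atf4, TGATGCAA, lies 168 bases before the start, on the opposite strand, and this motif is in 0.895% of all windows. The Phyh window also holds the nuclear receptor element AGGTCA, on the opposite strand, 36 bases after the start, past the stretch shown, and 16.3% of all windows hold it. Mthfd2 has 3 NF-Y boxes, CCAAT, at 96, 47 and 22 bases before the start, where 37.4% of all windows hold at least 1. No window shown holds the TATA box TATAAA, which is in 13.6% of all windows. GC boxes were found in both transporter genes, and none of the other motifs was found in more than 1 of the windows shown. Of the 48 genes of the 61 with a promoter window, 24 held a GC box, the 2 transporter genes among them. RefSeq gives Slc23a2 a second start 212 bases further out, whose window holds 2 NF-Y boxes and 0 GC boxes. Atf4 is known to act on Mthfd2, yet TGATGCAA is absent from the Mthfd2 window, which says only that these letters are not there. Matches describe sequence, and binding was not measured in these libraries.

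**Figure D4:**
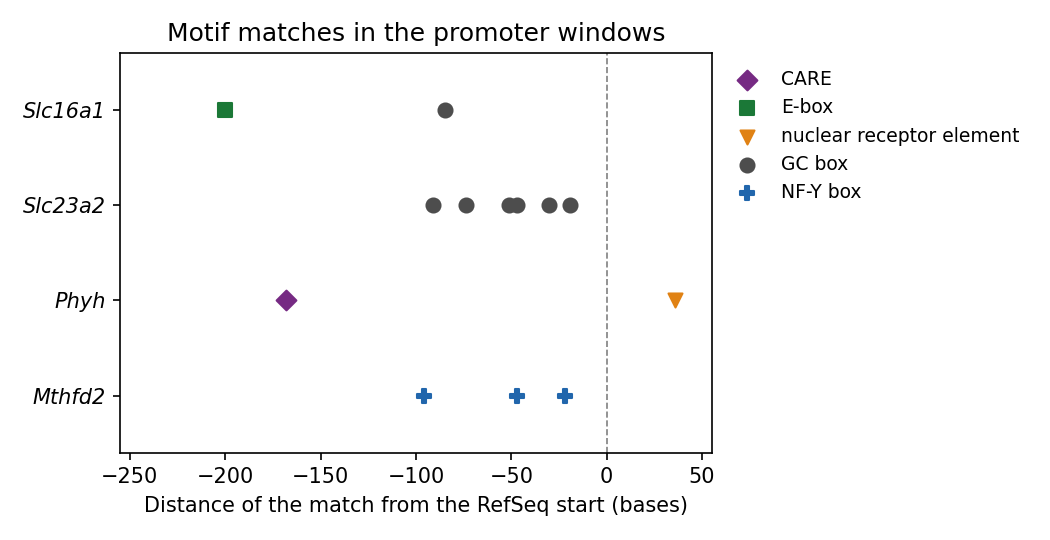
Matches to the motifs in the promoter windows of the 4 members, by distance in bases from the RefSeq start (dashed line), with 1 marker type per motif. Slc23a2 carries 6 GC boxes within 91 bases of the start and Mthfd2 carries 3 NF-Y boxes within 96 bases, while the E-box of Slc16a1 and the CARE match of Phyh lie 200 and 168 bases before it.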

How the data were processed

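Libraries of 3 WT and 3 KO colon crypt samples were grouped by their titles. Per the methods of the study and the submitters' processing notes, reads were trimmed with Trim Galore 0.4.2 and mapped to GRCm38 with HISAT2 2.0.1, and uniquely mapped reads were counted in SeqMonk over exons of merged transcripts. Whether strand was used is not given in the sources used here. The authors deposited log2 values normalised to total reads, 1 mean per genotype, for 61 genes. The methods name RPKM for fold changes, so a scaling by length is uncertain. The table also holds an FDR column from the authors' DESeq2 comparison (a threshold of 0.05), which was not used.

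Differences are KO minus WT between the authors' log2 means, and no test was run. As alternatives, a pseudocount of 1 or 0.1 was added on the linear scale, genes whose mean log2 was under 0 were dropped, and words of 100 bases replaced those of 50. Gene models and transcripts were those of GENCODE M21, and promoters those of RefSeq on GRCm38.p6, with 32851 windows of 300 bases. Of the 61 genes, 48 matched a promoter window by symbol. The motif search and the differences were tested on simulated data. The named genes were the members, Smarcad1, genes of the pathway lists or with an Slc symbol in the table, and for each member the next gene on either side by difference. Members and lists were chosen with earlier results of these data known, the genes of the table included. Gzmb comes from the marker lists. The genes named as having no row, those that neighbour or lie across a member and Pex7 were named after the values were seen. Python 3.11.15 and matplotlib 3.10.9 were used.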

Additional observations from a re-analysis of the deposited data

How the results depend on the processing

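The direction of each member difference was the same with a pseudocount of 1 and of 0.1 on the linear scale, which cannot turn a sign. The largest shift was 0.024 log2 units, from -0.62 to -0.60 for Mthfd2 with a pseudocount of 1. The filter at a mean log2 of at least 0 kept 59 genes and all 4 members, and 21 genes then differed by over 1 log2 unit in place of 23. Ranks moved by at most 2 places, and with words of 100 bases none was shared with another gene for any member. Values per library were not used here, so neither a paired analysis nor leaving out a library was run. The depth behind the means is unknown, so no precision is given.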
